A study of Mus musculus and Homo sapiens with 14 samples.

Results

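The 41 genes described here encode the machinery that copies DNA and the regulators that open S phase. They fall into 8 roles: the MCM2-7 helicase subunits, the origin recognition and licensing factors with their inhibitor, the factors that assemble and fire the replicative helicase, the sliding clamp and its loader, primase and the polymerases, single-strand binding and Okazaki fragment maturation, nucleotide supply, and the G1/S regulators. The rule takes table rows by gene symbol and uses no measured value. All 41 symbols were found among the 50559 gene entries of the EL4 tumour table and the 55969 entries of the EG7-OVA cell table. All 41 also passed the filter on low counts, which left 19993 and 19123 genes for testing.

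RNA was sequenced from mouse tumours grown from EL4, a T-cell lymphoma line, and from cultured EG7-OVA cells, an EL4 derivative that carries an ovalbumin gene. The tumours are labelled P0 and P3, and the labels do not say what these names stand for or which host mice were used. The cells received DMSO as the solvent control, 1.5 µM azacytidine or 0.2 µM decitabine. Treatment was given at 0 h, repeated at 24 and 48 h, and RNA was taken at 72 h. Every sample is labelled wild type, and each of these 5 groups holds 2 libraries. NKYS cells in the same series were not used here. Whether the libraries of a group came from separate cultures or animals is not stated in the labels. All p-values therefore reflect only how far these samples varied, which may be technical.

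A replication origin is licensed in G1, when the origin recognition complex, Cdc6 and Cdt1 load the MCM2-7 ring onto DNA, and geminin blocks a repeat of this step by binding Cdt1. At the start of S phase Cdc45 and the GINS complex join MCM2-7 to form the active helicase, primase and the polymerases copy the unwound strands, and the clamp PCNA keeps the polymerases on the template. Transcription of many of these genes is switched on by E2F factors once cyclin-dependent kinases have released these factors from the retinoblastoma proteins at the passage from G1 into S. Azacytidine and decitabine are nucleoside analogues that enter nucleic acid in place of cytidine and hold DNA methyltransferases on the template, and decitabine differs from azacytidine in having deoxyribose as its sugar.

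Promoter sequences were searched for an element linked to the E2F factors. RefSeq promoters on GRCm38.p6, each running from 250 bases before to 50 bases after the transcription start, were matched by symbol for 32 of the 41 genes. They were searched on both strands for 4 E2F-type motifs, TTTCCCGC, TTTGGCGC, TTTCGCGC and TTTGCCGC, whose matches on opposite strands can overlap. At least 1 match was found in 13 of the 32 genes (40.6%), in 2.6% of all 27025 genes with a promoter entry and in 3.29% of the 17492 protein-coding ones. The genes with a match were Mcm3, Mcm5, Mcm6, Mcm7, Orc1, Cdc6, Cdt1, Gins3, Rfc3, Pola1, Pold1, Lig1 and E2f2. A match is a run of letters and not evidence of binding, and no match says only that these letters are not in this window. The stretches printed here were chosen because they carry such a match in genes that fell or changed differently between samples, with Tk1 shown as a gene without a match that rose with both drugs. They are written 5′ to 3′ on the strand of the gene, with the motif in capitals, and overlapping matches form a longer run of capitals. Mcm6 lies at chr1:128359725-128359835 on the minus strand (bases -130 to -20 from the start), Orc1 at chr4:108579407-108579453 on the plus strand, Cdc6 at chr11:98907993-98908040 on the plus strand, and Pola1 at chrX:93632266-93632313 on the minus strand. Mcm7 lies at chr5:138172021-138172068 on the minus strand, Tk1 at chr11:117826015-117826074 on the minus strand, and, downstream of their starts, Pold1 at chr7:44548766-44548787 on the minus strand and E2f2 at chr4:136172302-136172323 on the plus strand.
Mcm6: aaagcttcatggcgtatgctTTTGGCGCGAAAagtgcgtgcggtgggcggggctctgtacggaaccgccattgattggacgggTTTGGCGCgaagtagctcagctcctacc
Orc1: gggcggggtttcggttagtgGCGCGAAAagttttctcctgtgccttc
Cdc6: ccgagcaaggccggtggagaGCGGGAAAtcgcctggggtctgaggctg
Pola1: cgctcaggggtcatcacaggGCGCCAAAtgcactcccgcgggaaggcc
Mcm7: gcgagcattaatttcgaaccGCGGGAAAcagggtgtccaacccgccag
Tk1: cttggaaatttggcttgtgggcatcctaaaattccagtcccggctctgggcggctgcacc
Pold1: cgtatcttgtgGCGGGAAAagc
E2f2: gcggcatatagTTTGGCGCtaa

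The tumour libraries held 21621580 to 25328708 counts and the cell libraries 15690749 to 21048978. Within a group, logCPM values across genes had r = 0.97 and 0.991 in the tumours and 0.969 to 0.978 in the cells, and genes are not independent replicates. All 10 T-cell markers were detected in every group. The 2 DMSO libraries, called a and b here, differed: 40 of the 41 genes were higher in a than in b, with a median log2 ratio of 0.38, whereas 51.9% of all genes tested were higher in a. Which of the 2 libraries is the unusual one cannot be told. Summed B-cell markers also differed between them, at 4.27 CPM in a and 49.5 CPM in b. Within P3, 36 of the 41 genes were higher in replicate 2, and within P0, 32 were higher in replicate 1, with smaller median ratios of -0.10 (replicate 1 over 2) and 0.089. Levels below are normalised CPM, meaning counts scaled to library size (CPM) after scaling for library composition, in the order of the libraries, replicate 1 then 2 or DMSO a then b. Differences are given as log2 fold change ± SE, fitted by edgeR on 2 libraries in each group, and a gene is said to rise or fall where its Benjamini-Hochberg adjusted p over all genes tested was under 0.05. Tumours and cells were normalised separately, so levels are not compared between them by a test.

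Values of 37 of the 41 genes were lower in P3 than in P0 tumours, but the genes that fell were unevenly spread over the roles. They were 5 of 6 helicase subunits, 6 of 6 assembly and firing genes, 4 of 4 single-strand binding and Okazaki genes and 3 of 6 polymerase and primase genes. In the other roles 0 of 5 licensing, 2 of 6 clamp and loader, 1 of 4 nucleotide supply and 1 of 4 G1/S genes fell. Of the 41 genes, 22 fell (53.7%, against 19.9% of all 19993 genes tested), and Pole and Tyms rose (4.88%, against 18.8%), while 17 did not pass. The median log2 fold change was -0.47, and over all genes tested it was -0.0019. P0 and P3 values did not overlap for 78.0% of the genes, close to the 76.1% of all genes, so the lack of overlap says little about this set. The summed normalised CPM of the 41 genes stood at 5795 and 5457 in P0 and 4078 and 4476 in P3. The calls rest on both P0 libraries: without P0 replicate 1 or without P0 replicate 2, edgeR called 0 genes of the whole table, with 5571 and 5768 genes at an unadjusted p under 0.05. DESeq2 then called 6 of the genes lower and 1 higher without replicate 1, and 12 lower and 0 higher without replicate 2, while the edgeR medians without any 1 library were between -0.56 and -0.43.

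Markers of several other cell types moved with this comparison. Summed macrophage and monocyte markers stood at 1350 to 1670 CPM in P0 and 367 to 396 CPM in P3, B-cell markers at 280 to 471 and 64.0 to 69.2 CPM, dendritic cell markers at 175 to 200 and 46.8 to 48.2 CPM, and fibroblast markers at 2950 to 3010 and 1050 to 1700 CPM. Neutrophil markers were higher in P3, at 17.6 to 58.8 against 7.95 to 9.79 CPM, endothelial markers stood at 250 to 252 CPM in P0 and 170 to 249 CPM in P3, and T-cell markers stood at 2250 to 2530 CPM in P0 and 1910 to 2070 CPM in P3. By count, 10 of 12 macrophage, 8 of 8 B-cell, 6 of 8 dendritic and 3 of 8 fibroblast markers fell, where 19.9% of all genes tested fell. Falls of 1 of 8 endothelial (12.5%) and 2 of 10 T-cell markers (20%) were below or near that share. Of the tested neutrophil markers 3 of 5 rose, where 18.8% of all genes rose. Rises of 1 macrophage, 1 fibroblast and 1 T-cell marker were below that share in their lists. No marker of these lists was at 0 in any tumour group. Their part in the replication gene result was not tested. In bulk tissue and bulk cultures alike, fewer cells in S phase and less RNA per cell cannot be told apart.

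Replication gene RNA was lower with both drugs in EG7-OVA cells. With azacytidine 17 of the 41 genes fell (41.5%, against 6.7% of all 19123 genes tested), and Tk1 and E2f2 rose (4.88%, against 13.6%), with a median log2 fold change of -0.59 where all genes had 0.033. With decitabine 26 fell (63.4%, against 4.3%), Tk1 alone rose (2.44%, against 12.4%), and the median was -0.78 where all genes had 0.036. The drug and DMSO values did not overlap for 87.8% of the genes with azacytidine and 85.4% with decitabine, where the shares of all genes were 61.1% and 58.8%. As a share of all normalised counts the 41 genes made up 0.851% and 0.65% under DMSO, where the azacytidine libraries had 0.527% and 0.458% and the decitabine libraries 0.472% and 0.416%. Both comparisons share the same DMSO libraries, so they are given side by side and not as repeats of each other. Without DMSO library a, the counts dropped to 8 lower and 0 higher with azacytidine (median -0.39) and to 10 lower and 0 higher with decitabine (median -0.56). The 8 were Mcm6, Orc1, Gins1, Rfc4, Pola1, Prim2, Pold1 and Pole, and the 10 were Mcm2, Mcm5, Mcm6, Mcm7, Orc1, Cdc45, Gins1, Pola2, Pold1 and Pole. Without DMSO b, 22 fell with azacytidine and 29 with decitabine. Leaving out azacytidine replicate 1 or 2, or decitabine replicate 2, also left fewer of the 41 genes lower with that drug. Over all 6 fits with a library left out, the medians were -0.83 to -0.39 with azacytidine and -0.99 to -0.56 with decitabine. In the fits without DMSO a or without a library of the drug, fewer genes of the whole table fell as well.

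Markers of other cell types were low in the cultures. Summed macrophage and monocyte markers stood at 21.4 to 22.7 CPM with DMSO, 37.4 to 47.9 CPM with azacytidine and 59.0 to 63.6 CPM with decitabine, with C1qa, C1qb and C1qc at 0 in all of them. Of these markers 5 of 8 tested rose with each drug (62.5%), where 13.6% of all genes rose with azacytidine and 12.4% with decitabine. B-cell markers stood at 13.7 to 25.2 CPM with azacytidine and 23.0 to 31.3 CPM with decitabine, within the range of the DMSO libraries. T-cell markers stood at 1700 to 1790, 2050 to 2530 and 2280 to 2460 CPM with DMSO, azacytidine and decitabine, and 2 of 10 rose with azacytidine (20%) and 3 of 10 with decitabine (30%). Fibroblast markers stood at 94.2 to 118, 94.5 to 174 and 153 to 189 CPM, with Col3a1 and Dcn at 0 in all groups and 3 of 5 tested higher with each drug. Dendritic cell markers stood at 17.3 to 26.2, 12.8 to 14.3 and 18.5 to 21.2 CPM, endothelial markers at 60.4 to 81.1, 64.5 to 70.9 and 79.3 to 87.2 CPM, and neutrophil markers at 0.553 to 0.748, 0.784 to 1.31 and 0.612 to 1.26 CPM. The part of these shifts in the replication gene result was not tested.

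**Figure D1:**
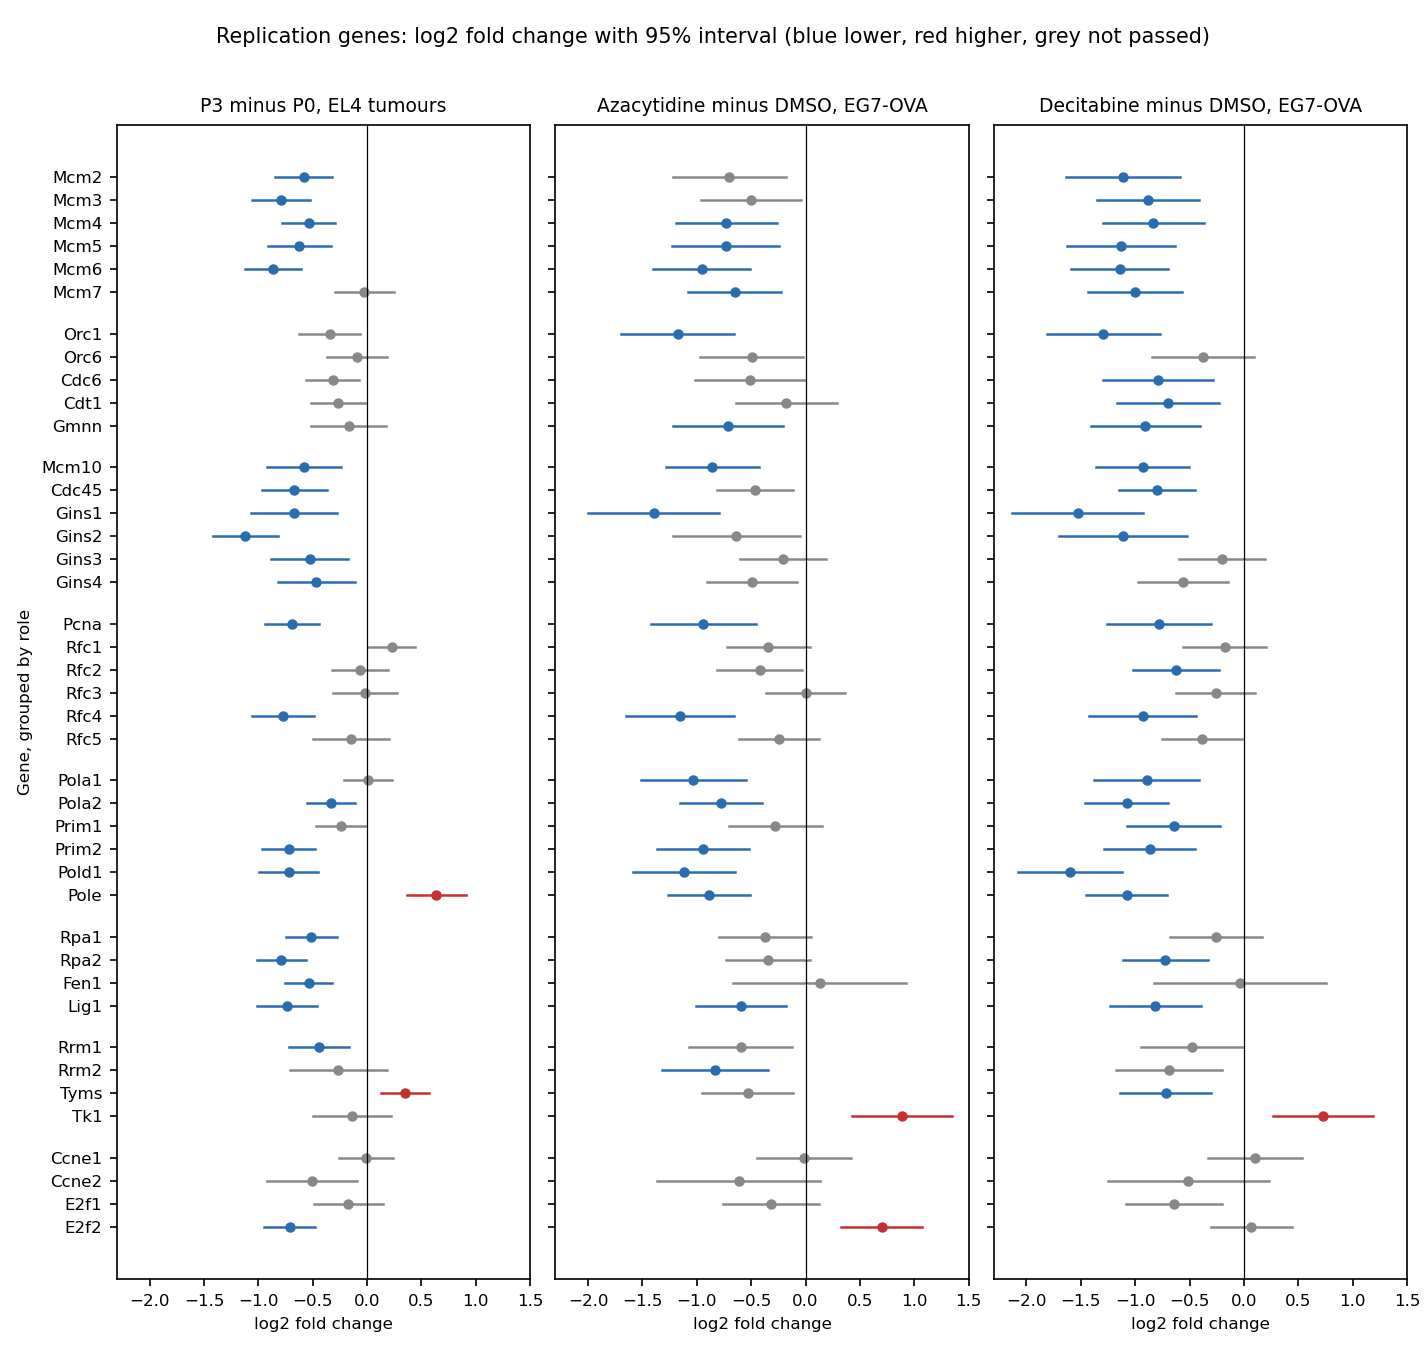
Log2 fold change (x axis) of each of the 41 genes (y axis, grouped by role) for P3 minus P0, azacytidine minus DMSO and decitabine minus DMSO, with 95% intervals from edgeR. Blue marks genes that fell, red genes that rose and grey genes that did not pass; 22, 17 and 26 genes are blue, and Pole is red in the tumours but blue with both drugs.

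**Figure D2:**
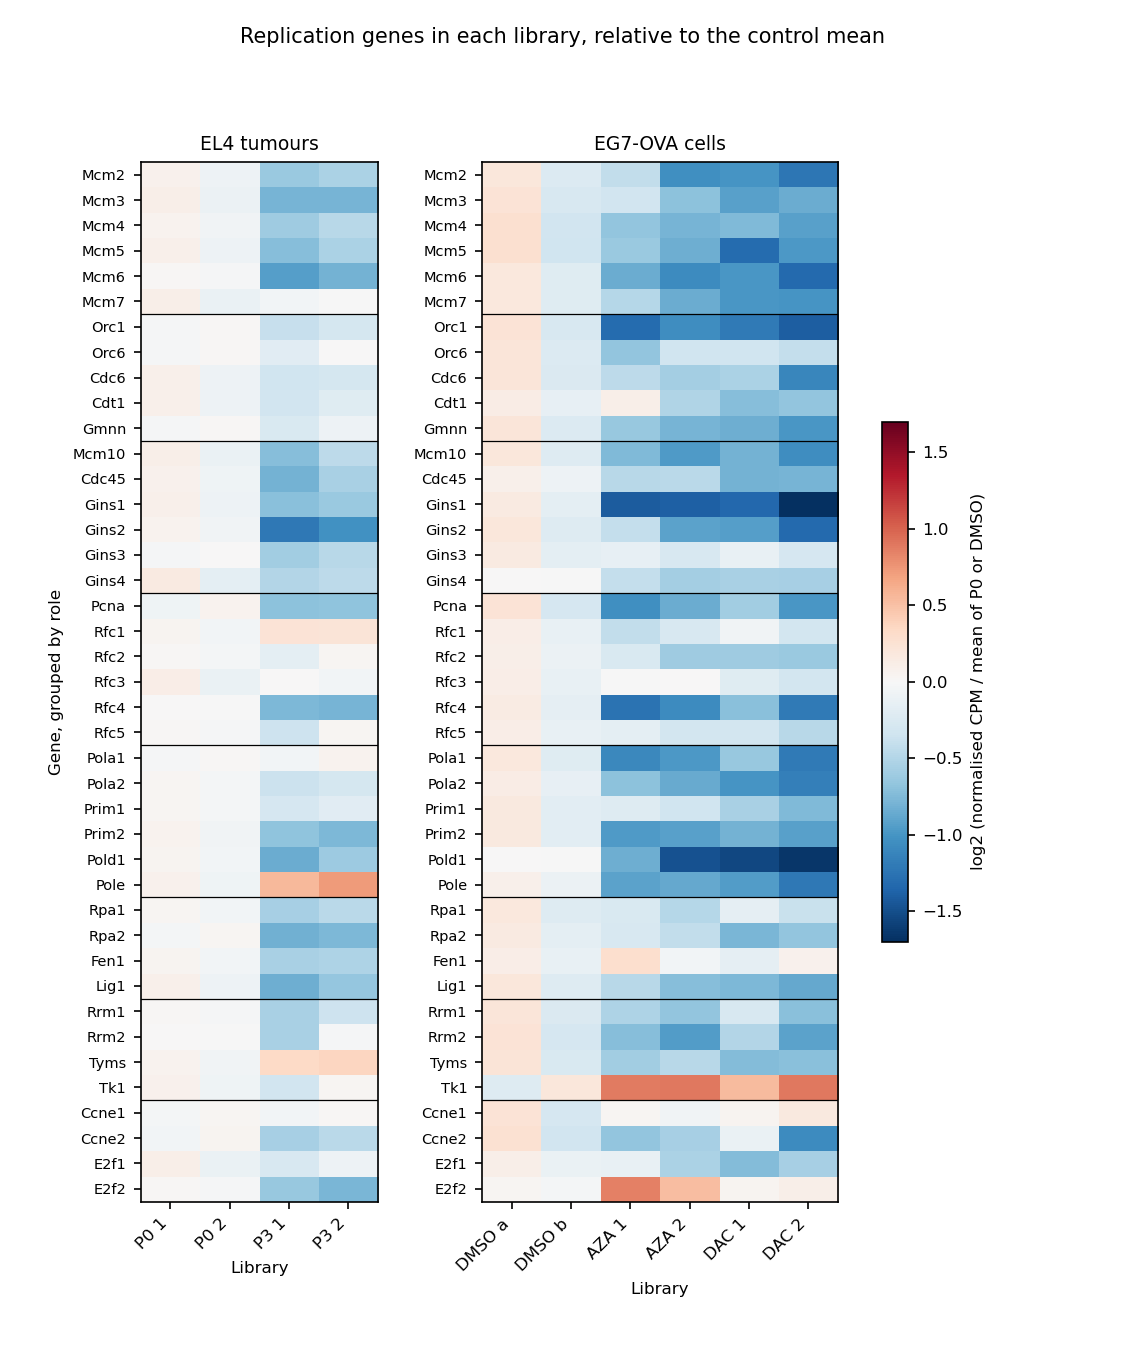
Log2 ratio of each library's normalised CPM to the mean of P0 (left) or of DMSO (right), for the 41 genes by role. DMSO a is redder than DMSO b for 40 of 41 genes, the exception being Tk1, and Tk1 and E2f2 stand out as red among the azacytidine libraries.

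Most subunits of the helicase ring fell in each of the 3 comparisons. MCM2 to MCM7 form the hexamer that unwinds DNA ahead of the fork. In the tumours 5 of 6 subunits fell (83.3%, against 19.9% of all genes tested). With azacytidine 4 of 6 fell (66.7%, against 6.7%) and with decitabine 6 of 6 (100%, against 4.3%). Mcm6 had the highest level of the ring per length in every group. It stood at 501 and 486 CPM in the P0 tumours and 258 and 282 CPM in the P3 tumours. The groups did not overlap, and the difference was -0.87 ± 0.10 (edgeR quasi-likelihood test, adjusted p = 0.00392). In the cells Mcm6 read 812 and 619 CPM with DMSO, 397 and 341 CPM with azacytidine, and 361 and 287 CPM with decitabine. Every treated library lay below both DMSO libraries, and the differences were -0.95 ± 0.20 with azacytidine (edgeR adjusted p = 0.00817) and -1.14 ± 0.20 with decitabine (edgeR adjusted p = 0.00408). Of the other subunits, Mcm3 had the next largest fall in P3, -0.80 ± 0.11, from 347 and 302 CPM in P0 to 187 CPM in each P3 library. Mcm5 changed by -0.62 ± 0.12 in P3, by -0.73 ± 0.22 with azacytidine and by -1.13 ± 0.22 with decitabine, and its decitabine call was kept under all 8 other settings and without each of 6 libraries. Its azacytidine call was lost with the replicate block, without DMSO library a and without either azacytidine replicate. Mcm2 fell by 0.58 (log2) in P3 and by 1.11 with decitabine, and its azacytidine value of -0.70 ± 0.23 did not pass (edgeR adjusted p = 0.06) but did so under 5 of 8 other settings. Mcm4 fell in all 3 comparisons, by 0.54, 0.73 and 0.83 (log2), and both drug calls were lost without DMSO library a.

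Mcm7 did not follow the rest of the ring in the tumours. Its values were 257 and 220.3 CPM in the P0 tumours and 229.9 and 238 CPM in the P3 tumours, which overlapped, and the difference was -0.026 ± 0.11 with a 95% interval of -0.30 to 0.25. In the cells it stood at 489 and 376 CPM with DMSO, 309.98 and 241 CPM with azacytidine, and 217 and 215 CPM with decitabine, and it fell with both drugs, by 0.65 (log2) with azacytidine and with a 95% interval of -1.43 to -0.57 with decitabine. Without DMSO library a its azacytidine call was lost and its decitabine call was kept. The opposite-strand genes Ap4m1 and Cops6 share 7.25% and 1.45% of the exon bases of Mcm7, and the strand setting of the counting is not given in the sources used here.

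Licensing genes did not pass in the tumours, and some of them fell with the drugs. None of the 5 genes (Orc1, Orc6, Cdc6, Cdt1 and Gmnn) passed in P3 against P0, where their log2 fold changes ran from -0.34 to -0.090. With azacytidine 2 of 5 fell (40%, against 6.7% of all genes tested) and with decitabine 4 of 5 (80%, against 4.3%), and Orc6 passed with neither. Orc1, the largest subunit of the origin recognition complex, whose exon bases are shared to 10.8% with the opposite-strand transcript Gm12743, stood at 48.3 and 34 CPM with DMSO, 16.7 and 19.7 CPM with azacytidine, and 17.9 and 15.6 CPM with decitabine. The treated libraries were all below the DMSO libraries, and Orc1 fell by 1.18 (log2, SE 0.23, edgeR adjusted p = 0.00643) and 1.29 (SE 0.23, edgeR adjusted p = 0.00481). Orc1 read 28.3 and 29.2 CPM in the P0 tumours and 22 and 23.3 CPM in the P3 tumours, with a difference of -0.34 ± 0.11 that missed the threshold (edgeR adjusted p = 0.0602). Gmnn encodes geminin, the licensing inhibitor, and fell with both drugs, by 0.71 and 0.91 (log2). Its azacytidine call sat at the threshold (edgeR adjusted p = 0.0498), and both drug calls of Gmnn were lost without DMSO library a. The azacytidine call was also lost with limma-voom, with the replicate block and with only the 4 libraries compared.

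The loading factors Cdc6 and Cdt1 fell with decitabine and did not pass with azacytidine, and the difference between the drugs passed for neither gene. Cdt1, which brings MCM2-7 to the origin, stood at 178 and 148 CPM with DMSO, 174 and 115 CPM with azacytidine, and 98.3 and 103 CPM with decitabine. Azacytidine replicate 1 lay inside the DMSO range, and the change was -0.18 ± 0.21 with azacytidine (edgeR adjusted p = 0.607) and -0.70 ± 0.21 with decitabine (edgeR adjusted p = 0.0477). The azacytidine value turned positive, at 0.056, without azacytidine replicate 2. Cdc6, the ATPase that joins the origin recognition complex, changed by -0.51 ± 0.23 with azacytidine (edgeR adjusted p = 0.143) and -0.79 ± 0.23 with decitabine (edgeR adjusted p = 0.0383). Both decitabine calls were lost without DMSO library a.

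All 6 genes for helicase assembly and firing fell in P3 tumours, where 19.9% of all genes tested fell. They are Cdc45 and the GINS subunits Gins1 to Gins4, which complete the active helicase, and Mcm10, which helps it start. With azacytidine 2 of the 6 fell (33.3%, against 6.7% of all genes tested) and with decitabine 4 (66.7%, against 4.3%). Gins1 stood at 24.9 and 19.9 CPM with DMSO, 8.43 and 8.58 CPM with azacytidine, and 8.87 and 6.61 CPM with decitabine. The lowest DMSO value was above 2 times the highest treated value, and Gins1 fell by 1.40 (log2, SE 0.27, edgeR adjusted p = 0.00568) and 1.53 (SE 0.27, edgeR adjusted p = 0.00427). Both calls were kept under all 8 other settings and without each of 6 libraries. Gins1 read 16.9 and 15 CPM in the P0 tumours and 9.73 and 10.3 CPM in the P3 tumours, a difference of -0.67 ± 0.16.

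Gins2 had the largest fall of the 41 genes in P3, -1.12 ± 0.12 (edgeR adjusted p = 0.00302), from 48.9 and 45.1 CPM to 20.2 and 23.1 CPM. This value is uncertain, since 67.3% of the exon bases of Gins2 are shared with Gse1 on the opposite strand, which read 87.1 to 98.5 CPM in the tumours and 59.4 to 190 CPM in the cells. In the cells Gins2 passed with decitabine (-1.11 ± 0.26) and not with azacytidine (-0.64 ± 0.26), and the decitabine call was lost without DMSO library a. Cdc45, the helicase cofactor recruited at firing, fell by 0.67 (log2) in P3 and by 0.80 with decitabine, and its azacytidine value of -0.47 ± 0.16 did not pass (edgeR adjusted p = 0.0623). Its treated libraries agreed closely, at 85.4 and 86.1 CPM with azacytidine and 68 and 68.3 CPM with decitabine, against 125 and 111 CPM with DMSO. Mcm10 fell in all 3 comparisons (-0.58 ± 0.13, -0.86 ± 0.19 and -0.93 ± 0.19), and both drug calls were lost without DMSO library a. Gins3 and Gins4 fell in P3 by 0.53 and 0.47 (log2) and passed with neither drug. The Gins4 call sat near the threshold (edgeR adjusted p = 0.0484) and was kept under 3 of 7 other settings. Gins3 overlapped between DMSO and treated cells, at 70.1 and 56.2 CPM with DMSO, 57.3 and 52.2 CPM with azacytidine, and 58 and 52 CPM with decitabine.

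Among the clamp and its loader, Pcna and Rfc4 fell in every comparison and the other loader subunits mostly did not. PCNA is the ring that holds the polymerases on DNA, and the RFC complex opens it. Pcna stood at 378 and 415 CPM in the P0 tumours and 245 and 247 CPM in the P3 tumours, without overlap, and fell by 0.69 (log2, SE 0.10, edgeR adjusted p = 0.0063). In the cells it read 264 and 185 CPM with DMSO, 109 and 125 CPM with azacytidine, and 149 and 112 CPM with decitabine, with differences of -0.94 ± 0.22 and -0.78 ± 0.21. Both drug calls for Pcna were lost without DMSO library a. Among its processed pseudogenes, Pcna-ps2 read 1.42 to 2.89 CPM in the tumours and 0.71 to 1.31 CPM in the cells and Pcna-ps1 was at 0. Reads that map to more than 1 of these copies were not measured. Rfc4, a small subunit of the loader, read 30 and 29.4 CPM in the P0 tumours and 17.6 and 17.2 CPM in the P3 tumours and 50.6 and 41.5 CPM with DMSO, 19.3 and 22 CPM with azacytidine, and 28.1 and 20.1 CPM with decitabine. It fell by 0.77 in P3 and by 1.15 and 0.93 with the drugs (log2), and without DMSO library a the azacytidine call was kept and the decitabine call was lost. Eif4a2 on the opposite strand shares 12.7% of the exon bases of Rfc4. Rfc1, the large subunit, did not pass in any comparison, and its tumour value was positive, 0.23 ± 0.087 (edgeR adjusted p = 0.087). Rfc2 fell with decitabine, by 0.62 (log2), a call lost without DMSO library a. Rfc3 and Rfc5 passed in none of the 3 comparisons. Lat2 on the opposite strand shares 15.1% of the exon bases of Rfc2, and Wsb2 shares 10.7% of those of Rfc5.

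Polymerase and primase genes fell in the treated cells nearly throughout and were divided in the tumours. DNA polymerase alpha (Pola1 and Pola2) works with primase (Prim1 and Prim2) to start each strand, and Pold1 and Pole encode the catalytic subunits of the lagging- and leading-strand polymerases. With decitabine 6 of 6 fell (100%, against 4.3% of all genes tested) and with azacytidine 5 of 6 (83.3%, against 6.7%). In P3 tumours 3 of 6 fell (50%, against 19.9%), while Pole rose there. Pold1 stood at 199 and 198 CPM with DMSO, 112 and 71.6 CPM with azacytidine, and 67.9 and 63.4 CPM with decitabine. The DMSO libraries were nearly equal for this gene, and every treated library lay below them. It fell by 1.11 (log2, SE 0.21, edgeR adjusted p = 0.00501) with azacytidine and by 1.60 (SE 0.21, edgeR adjusted p = 0.000897) with decitabine, the largest fall of the 41 genes there. Both calls were kept under all 8 other settings and without each of 6 libraries. Pold1 read 121 and 113 CPM in the P0 tumours and 65.5 and 76.5 CPM in the P3 tumours, and it fell by 0.72 (log2, SE 0.11, edgeR adjusted p = 0.00686).

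Pole moved in opposite directions in the tumours and the cells. It stood at 187 and 169 CPM in the P0 tumours and 259.7 and 294 CPM in the P3 tumours. Both P3 libraries were above both P0 libraries, and Pole rose by 0.64 (log2, SE 0.11, edgeR adjusted p = 0.00988). In the cells it read 308 and 271 CPM with DMSO, 155 and 158 CPM with azacytidine, and 149.8 and 124 CPM with decitabine, and it fell by 0.89 (log2, SE 0.17, edgeR adjusted p = 0.00505) and 1.08 (SE 0.17, edgeR adjusted p = 0.00224). The tumours and the cells are separate experiments, and the difference between them was not tested. The antisense gene Gm15792 shares 0.699% of the exon bases of Pole.

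Pola1, the polymerase alpha catalytic subunit, fell in the cells and did not pass in the tumours. It read 135 and 138 CPM in the P0 tumours and 132 and 142 CPM in the P3 tumours, which overlapped, with a difference of 0.0064 ± 0.088 and a 95% interval of -0.21 to 0.23. In the cells it read 215 and 163 CPM with DMSO, 88.5 and 96.2 CPM with azacytidine, and 121 and 82.4 CPM with decitabine, and it fell by 1.03 with azacytidine and 0.89 with decitabine (log2). The decitabine call of Pola1 was lost without DMSO library a and without decitabine replicate 2. Its azacytidine call was lost without either azacytidine replicate. Pola2, its accessory subunit, fell in all 3 comparisons, by 0.33, 0.78 and 1.08 (log2), and its decitabine call was kept without each of 6 libraries. Prim2, the large primase subunit, read 74.3 and 68.5 CPM in the P0 tumours and 44.6 and 42.1 CPM in the P3 tumours and 62 and 48.9 CPM with DMSO, 28.4 and 29.1 CPM with azacytidine, and 31.7 and 29.1 CPM with decitabine. It fell by 0.72 in P3 and by 0.95 and 0.87 with the drugs (log2). Its decitabine call was lost without DMSO library a, and its azacytidine call was lost without azacytidine replicate 1. Prim1, the catalytic primase subunit, passed with decitabine only (-0.64 ± 0.19, edgeR adjusted p = 0.0455), a call lost without DMSO library a, and its tumour and azacytidine values were -0.24 ± 0.093 and -0.28 ± 0.19.

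**Figure D3:**
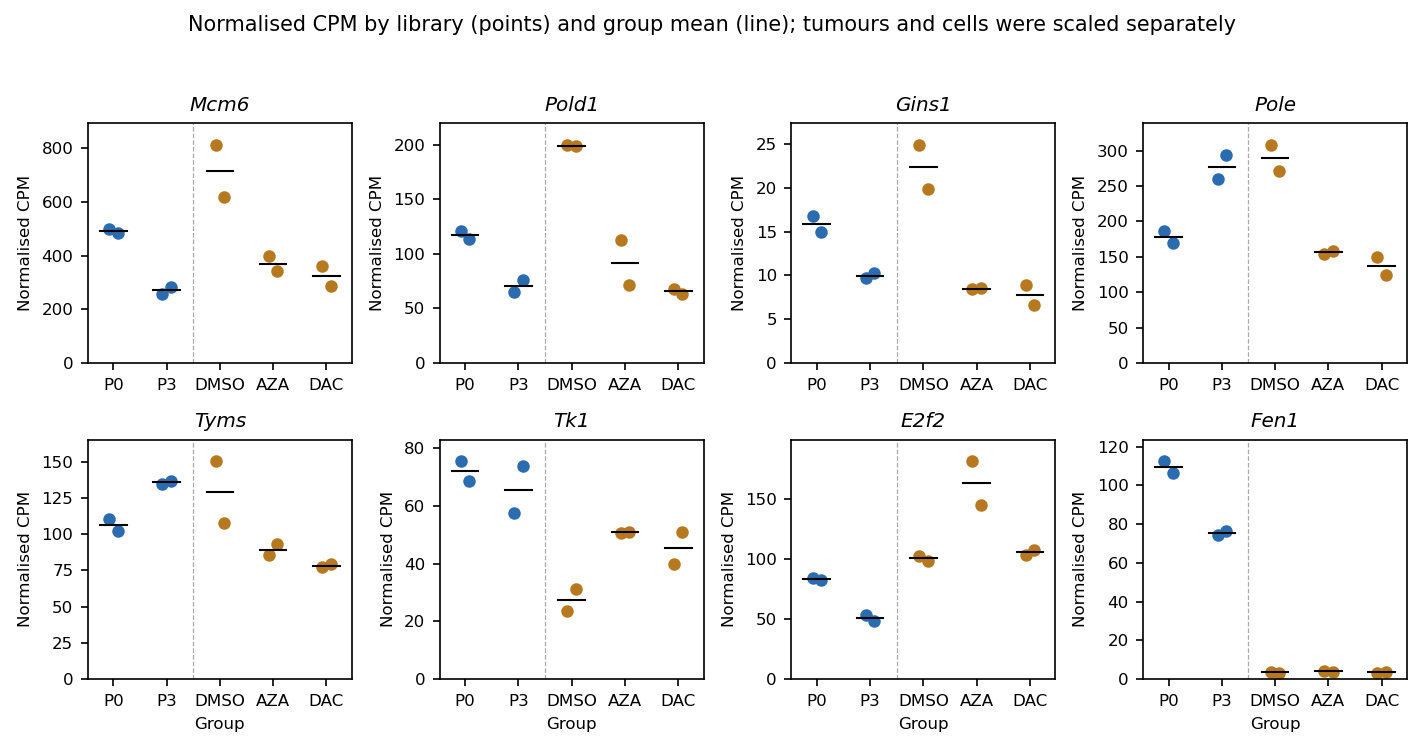
Normalised CPM (y axis, from 0) of 8 genes in each library (points) with group means (lines); tumours in blue, cells in brown. Pole is higher in P3 than P0 and lower with both drugs, Tk1 is higher with both drugs, E2f2 is higher with azacytidine, and Fen1 stands near 100 CPM in tumours but under 5 CPM in the cells.

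All 4 genes for single-strand binding and Okazaki fragment maturation fell in P3 tumours, where 19.9% of all genes tested fell. RPA (Rpa1 and Rpa2) coats unwound DNA, Fen1 trims the flaps left on lagging-strand fragments, and Lig1 seals them. Rpa2 stood at 85.4 and 89.9 CPM in the P0 tumours and 49.6 and 51.8 CPM in the P3 tumours, without overlap, and fell by 0.79 (log2, SE 0.090, edgeR adjusted p = 0.00343). Rpa1 fell by 0.51, Lig1 by 0.74 and Fen1 by 0.54 (log2). With azacytidine Lig1 alone passed, -0.59 ± 0.19 (edgeR adjusted p = 0.0491), and with decitabine Lig1 and Rpa2 passed, at -0.81 ± 0.19 and -0.72 ± 0.17. These 3 drug calls were lost without DMSO library a. Rpa1 read 440.05 and 334 CPM with DMSO, 322 and 276 CPM with azacytidine, and 347 and 299 CPM with decitabine, and its decitabine libraries overlapped the DMSO libraries.

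Fen1 had a low level in the cell table. It read 112 and 106 CPM in the P0 tumours and 74.3 and 76.3 CPM in the P3 tumours, but 3.87 and 3.29 CPM with DMSO, 4.38 and 3.46 CPM with azacytidine, and 3.21 and 3.77 CPM with decitabine. At these low levels no change with either drug was detectable, and the 95% intervals were -0.66 to 0.92 and -0.83 to 0.76 on the log2 scale. The antisense gene Gm10143 shares 78.8% of the exon bases of Fen1, is listed in the cell table at 1.02 to 2.66 CPM and is not an entry of the tumour table. Whether reads were split between them in the cell table was not tested, so the Fen1 values of the cells are uncertain.

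Nucleotide supply genes went in different directions. Rrm1 and Rrm2 form ribonucleotide reductase, which makes deoxyribonucleotides, Tyms makes thymidylate from deoxyuridylate, and Tk1 recovers thymidine by phosphorylating it. In P3 tumours Rrm1 fell by 0.44 (log2), Tyms rose by 0.35, and Rrm2 and Tk1 did not pass. With azacytidine Rrm2 fell by 0.83 and Tk1 rose by 0.89, and with decitabine Tyms fell by 0.72 and Tk1 rose by 0.73. Tyms stood at 111 and 102 CPM in the P0 tumours and 135 and 137 CPM in the P3 tumours, without overlap (edgeR adjusted p = 0.0292). In the cells Tyms read 150.4 and 108 CPM with DMSO, 85.4 and 93.1 CPM with azacytidine, and 77.4 and 79.1 CPM with decitabine, with an azacytidine value of -0.53 ± 0.19 that did not pass (edgeR adjusted p = 0.0736). The Tyms call in P3 was lost with a replicate block, and the decitabine call without DMSO library a. The pseudogene Tyms-ps held 1 count in all tumour libraries and 5 in all cell libraries.

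Tk1 rose in the treated cells. It stood at 23.6 and 31.2 CPM with DMSO, 50.6 and 51 CPM with azacytidine, and 39.9 and 50.8 CPM with decitabine. All 4 treated libraries lay above both DMSO libraries, and the rises were 0.89 ± 0.21 (edgeR adjusted p = 0.0134) and 0.73 ± 0.21 (edgeR adjusted p = 0.0372). Tk1 was also the only 1 of the 41 genes that was lower in DMSO library a than in b. Without library a neither rise passed, and the decitabine rise was also lost with total-count scaling and with only the 4 libraries compared. Tk1 levels were 75.4 and 68.6 CPM in the P0 tumours and 57.3 and 73.6 CPM in the P3 tumours. Rrm2, the regulatory subunit of ribonucleotide reductase, read 272 and 269.9 CPM in the P0 tumours and 185 and 266 CPM in the P3 tumours, with P3 replicate 2 close to P0. In the cells it read 612 and 429 CPM with DMSO, 315 and 269 CPM with azacytidine, and 370.1 and 276 CPM with decitabine, and its azacytidine call was lost without DMSO library a. The decitabine value of Rrm2, -0.69 ± 0.22, did not pass (edgeR adjusted p = 0.0593) but did so under 5 of 8 other settings.

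Among the G1/S regulators, E2f2 was the only gene to pass, and it went in opposite directions in tumours and azacytidine-treated cells. Ccne1 and Ccne2 encode cyclin E, which drives entry into S phase, and E2f1 and E2f2 are activator E2F factors. E2f2 stood at 84.6 and 82.8 CPM in the P0 tumours and 53.4 and 48.6 CPM in the P3 tumours, and fell by 0.71 (log2, SE 0.095, edgeR adjusted p = 0.0051). In the cells it read 103 and 98.4 CPM with DMSO, 181 and 145 CPM with azacytidine, and 104 and 107 CPM with decitabine. Both azacytidine libraries were above every DMSO and decitabine library, and E2f2 rose by 0.70 (log2, SE 0.17, edgeR adjusted p = 0.0153). With decitabine the value was 0.069 ± 0.17, which did not pass (edgeR adjusted p = 0.831) and changed sign to -0.0067 without DMSO library b. The azacytidine call was lost without DMSO a, without DMSO b and without azacytidine replicate 1. E2f1 read 44.3 and 38 CPM in the P0 tumours and 34.2 and 38.8 CPM in the P3 tumours and 56.2 and 48.7 CPM with DMSO, 48.3 and 36.1 CPM with azacytidine, and 31.6 and 35.6 CPM with decitabine. Its decitabine value of -0.64 ± 0.20 was nearest to the threshold (edgeR adjusted p = 0.0526) and passed under 5 of 8 other settings. Ccne2 values were negative in all 3 comparisons and did not pass (-0.51 ± 0.16, -0.62 ± 0.34 and -0.51 ± 0.33), and Ccne1 did not pass in any. Ints8 on the opposite strand shares 17.4% of the exon bases of Ccne2.

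Azacytidine and decitabine were given at different doses, 1.5 and 0.2 µM, so their difference describes these treatments and not the compounds at a matched dose. None of the 41 genes passed between them by edgeR, and neither did any of the 19123 genes tested (0%), with 1218 genes at an unadjusted p under 0.05. Limma-voom also called 0 genes, edgeR without a filter on low counts called 112 higher and 266 lower but 0 of the 41, and DESeq2 called 37 higher and 135 lower with azacytidine, E2f2 being the 1 gene of the 41 among them. The median difference over the 41 genes was 0.19 (log2, azacytidine minus decitabine) where all genes had 0.0038, and 29 of the 41 values were positive. Values of the drugs did not overlap for 46.3% of the 41 genes and for 35% of all genes. For E2f2 the difference was 0.63 ± 0.17 with a 95% interval of 0.26 to 1.00 (edgeR adjusted p = 0.332). Cdt1 had 0.52 ± 0.21 with an interval of 0.052 to 0.99, and Pold1 0.48 ± 0.21 with an interval of 0.018 to 0.95. For the MCM2-7 genes the differences ran from 0.11 to 0.41, and the interval for Mcm2 was -0.11 to 0.93. For Tk1 the interval was -0.29 to 0.62. These intervals are wide enough to hold differences of 0.5 (log2) or more for most of the genes, so the data do not show that the treatments acted alike.

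**Figure D4:**
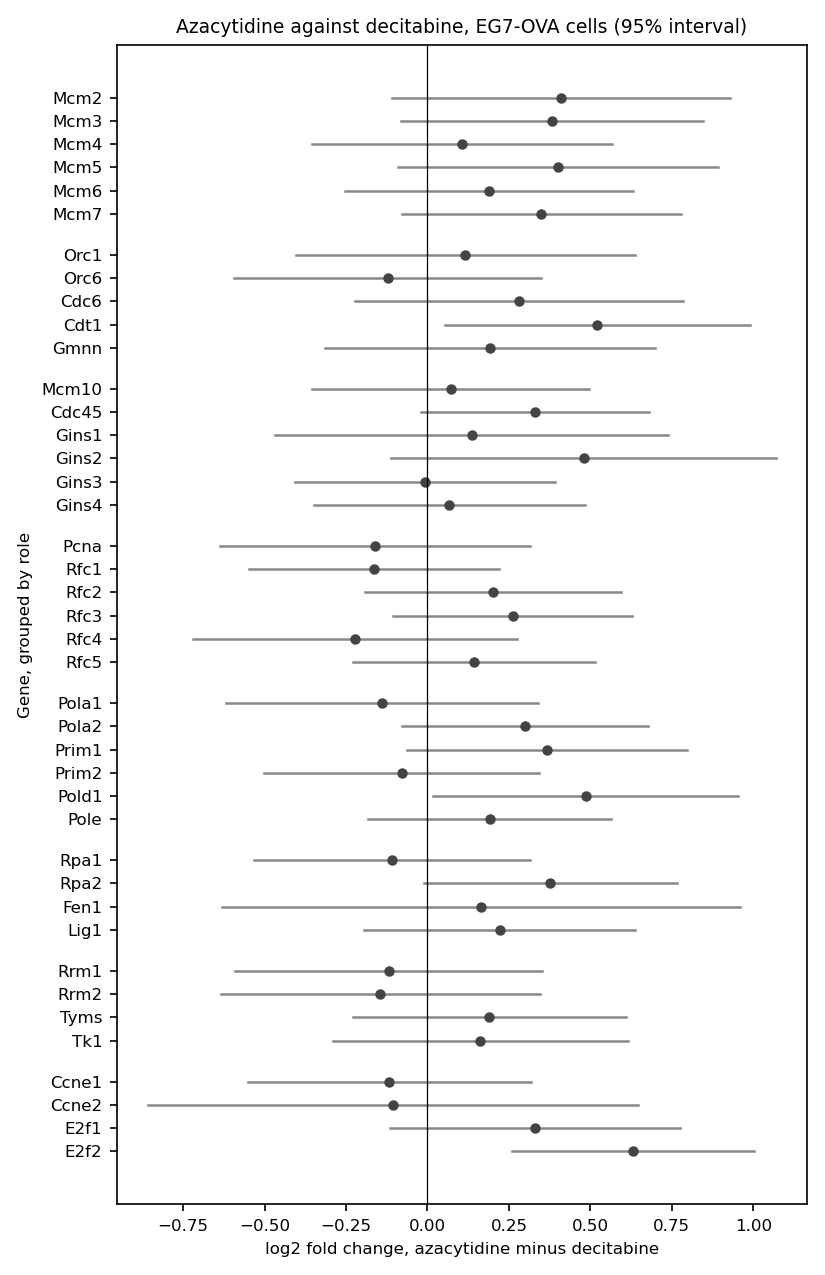
Log2 fold change between azacytidine and decitabine (x axis) for each of the 41 genes (y axis, by role) with 95% intervals from edgeR. Intervals for E2f2, Cdt1 and Pold1 lie above 0, yet no gene passed after adjustment over all 19123 genes.

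Compared per kilobase of exon, so that levels of different genes can be set side by side, Rrm2 had the highest mean in the cells and Pcna in the tumours. In DMSO cells Rrm2 read 188 ± 46.9 CPM per kb (SD, n = 2), Mcm6 153 ± 29.1 and Mcm3 104 ± 25.5, and neighbours in this order differed by less than the sum of their SDs. With azacytidine Rrm2 stood at 105 ± 11.7 and Mcm6 at 79.1 ± 8.44 CPM per kb, and with decitabine at 117 ± 23.9 and 69.4 ± 11.1. In P0 tumours Pcna read 165 ± 10.9 CPM per kb, above Mcm6 at 106 ± 2.27 by more than the sum of their SDs, and Rrm2 followed at 97.8 ± 0.550. In P3 Pcna read 102 ± 0.544, Rrm2 81.4 ± 20.7 and Mcm6 57.9 ± 3.67 CPM per kb, and neighbours in this order differed by less than the sum of their SDs. At the lower end Ccne2 was last in both tumour groups, at 3.60 ± 0.163 and 2.53 ± 0.129 CPM per kb, and Fen1 was last in all 3 cell groups, at 1.44 to 1.62 CPM per kb.

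Some genes fell in both tumours and cells. Of the 22 genes that fell in P3, 11 also fell with azacytidine (50% of the 22 and 64.7% of the 17), and 16 also fell with decitabine (72.7% of the 22 and 61.5% of the 26). Over all 41 genes, 41.5% fell with azacytidine, 63.4% with decitabine and 53.7% in P3, so the overlap shares are not far above those of the whole set. The overlaps are counts only, and no test of them was made. Mcm4, Mcm5, Mcm6, Mcm10, Gins1, Pcna, Rfc4, Pola2, Prim2, Pold1 and Lig1 fell in all 3 comparisons.

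Some genes with and some genes without an E2F-type promoter match fell in each comparison, and the difference between them was not tested. Among the 13 genes with a match, 7 fell in P3, 7 with azacytidine and 10 with decitabine. Among the 19 genes with a promoter entry and no match, 10, 5 and 9 fell. Over all genes tested, 19.9%, 6.7% and 4.3% fell in these comparisons. Median log2 fold changes were -0.53 and -0.33 in P3, -0.59 and -0.47 with azacytidine, and -0.88 and -0.64 with decitabine, with the matched genes given first in each pair. Within the matched genes E2f2 rose with azacytidine, and Gins3 and Rfc3 passed with neither drug. The CCAAT box, a binding sequence of the factor NF-Y, was present in 20 of the 32 promoters (62.5%), in 41.1% of all genes, in 80% of the mitosis genes and in 42.9% of the other replication genes. The median promoter of the 32 held 22.5 CpG dinucleotides, against 7 over all genes, 13 over protein-coding genes, 24.5 over mitosis genes and 26.5 over other replication genes. Promoters of the mitosis genes had the E2F-type match in 1 of 20 (5%), and those of other replication genes in 9 of 28 (32.1%).

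Related genes of the cell cycle were read from lists that hold none of the 41 genes. Over all genes tested, 18.8% rose and 19.9% fell in P3, 13.6% and 6.7% with azacytidine, and 12.4% and 4.3% with decitabine. Other replication fork and origin genes gave 5 higher and 10 lower of 32 tested in P3 (15.6% and 31.2%). They gave 0 higher and 14 lower of 33 with azacytidine (42.4% lower), and 0 higher and 18 lower with decitabine (54.5% lower). In P3 Mcm9, a helicase of the MCM family with roles in repair, rose by 0.66 (log2, from 38 ± 0.742 to 60.1 ± 5.37 CPM), Timeless, a fork protection factor, by 0.62 and Cdc7, the kinase that fires origins, by 0.47. Mcm8, the partner of Mcm9, went the other way and fell by 0.93 there. Under the drugs Timeless fell, at 86.7 and 84.8 CPM with DMSO, 50.4 and 40.4 CPM with azacytidine, and 33.1 and 30.2 CPM with decitabine, as did Pold2, the accessory subunit of polymerase delta (-1.29 ± 0.20 and -1.27 ± 0.20). Cdc7 fell with decitabine, by 1.05 (log2). Genes that make nucleotides gave 1 higher and 4 lower of 10 in P3 (10% and 40%), 5 lower with azacytidine (50%) and 7 lower with decitabine (70%). Shmt1, which serves the folate cycle behind thymidylate synthesis, fell in all 3 comparisons (-0.77 ± 0.12, -1.24 ± 0.22 and -1.32 ± 0.22), and Dut, which removes deoxyuridine triphosphate, fell by 0.91 (log2) in P3. Shmt2, the mitochondrial form, fell from 314 ± 15.6 CPM to 122 ± 32.5 CPM with azacytidine and 117 ± 10.3 CPM with decitabine.

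Several checkpoint genes and some chromatin assembly genes fell in the treated cells. The share of chromatin assembly genes that fell was the smaller of the 2 with azacytidine and the larger with decitabine. Of 13 S phase checkpoint genes, 9 fell with azacytidine (69.2%, against 6.7% of all genes) and 7 with decitabine (53.8%, against 4.3%), and 0 rose. In P3 4 of 12 fell (33.3%, against 19.9%) and 1 rose (8.33%, against 18.8%). Chek1, the main kinase of the replication checkpoint, fell by 0.50, 1.08 and 1.04 (log2) in P3, azacytidine and decitabine. Rad1, part of the checkpoint clamp, fell by 1.11 in P3, while Brca2, which acts in recombination repair and fork protection, rose by 0.55. Chromatin assembly genes gave 2, 2 and 5 lower of 8 in P3, azacytidine and decitabine (25%, 25% and 62.5%) and 0 higher. Their P3 share was near the 19.9% of all genes. Nasp, a histone chaperone, was lower in all 3 (-0.38, -0.94 and -0.99). The P3 call of Nasp was lost with a replicate block and with total counts only.

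Other regulators of the G1/S step were mostly not called. Of 26 genes, 4 rose and 3 fell in P3 (15.4% and 11.5%, below the 18.8% and 19.9% of all genes), 5 rose and 5 fell with azacytidine (19.2% each, against 13.6% and 6.7%), and 6 rose and 6 fell with decitabine (23.1% each, against 12.4% and 4.3%). Cdkn1a, the p21 inhibitor of cyclin-dependent kinases, stood at 38.7 and 31.4 CPM with DMSO, 375 and 360.2 CPM with azacytidine, and 267 and 430.5 CPM with decitabine. It rose by 3.39 (log2, SE 0.25, edgeR adjusted p = 3.23e-05) and 3.31 (SE 0.25, edgeR adjusted p = 4.54e-05), and both calls were kept under all 8 other settings and without each of 6 libraries. It read 73.8 and 75.2 CPM in the P0 tumours and 80.4 and 82.8 CPM in the P3 tumours and did not pass. Cdkn1c, which encodes p57, held 2 and 4 reads in the DMSO libraries, 962 and 376 with azacytidine and 241 and 174 with decitabine. It passed with both drugs (edgeR adjusted p = 4.9e-05 and 0.000272), and a fold is not given because so few reads stand behind DMSO. Ccna2, the S phase cyclin A, fell by 1.16 and 1.11 (log2), Rbl1, the p107 pocket protein, by 0.86 and 1.03, and Cdk4 by 0.82 with each drug. In P3 Rbl2, the p130 pocket protein linked to quiescence, rose from 80 ± 2.04 to 179.9 ± 20.3 CPM (1.17 ± 0.11) and Rb1 by 0.62, while Ccnd1, a D-type cyclin, fell by 1.08 and Ccnd2 rose by 1.90 with P3 libraries at 153 and 354 CPM.

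Mitosis genes fell alongside. Of 24, 14 fell in P3 (58.3%, against 19.9% of all genes, median -0.39). With azacytidine 19 fell (79.2%, against 6.7%, median -0.77) and with decitabine 18 (75%, against 4.3%, median -0.78), and 0 rose in each comparison. Ccnb1, Cdk1 and Aurka, which drive entry into mitosis, fell by 0.68, 0.57 and 0.87 (log2) in P3, and Prc1, a spindle midzone protein, fell by 1.21 and 1.15 with the drugs. The replication genes thus fell together with genes of later cell cycle steps. Every related gene named here that passed in P3 lost its edgeR call without P0 replicate 1 and without P0 replicate 2. Of the related genes with the smallest p in each list and direction, 17 of 20 with azacytidine and 15 of 21 with decitabine kept their call without DMSO library a, the exceptions being Asf1b, Nasp and Cdk4 with both drugs and Chaf1a, Cenpf and Brca1 with decitabine. Only 8 of the 20 and 11 of the 21 kept it with each library left out in turn: Ccna2 and Chek1 lost it with both drugs, and Timeless and Rbl1 with azacytidine, when a drug replicate was left out.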

How the data were processed

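RNA levels were read from deposited gene tables of 4 EL4 tumour libraries and 6 EG7-OVA libraries. The submitters' processing notes name fastp, Trim Galore, STAR and featureCounts and the mm10 build, without versions or strand setting. The authors deposited counts per gene for the tumours, and the deposited EG7-OVA table was treated as estimated counts (expected counts), since 145 values in 62 entries were not whole; none belonged to the 41 genes, and values were rounded. A further deposited table, of NKYS cells, was not used here.

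Each table was fitted alone with edgeR 4.0.16 (R 4.3.3), after filterByExpr and TMM scaling, with the quasi-likelihood test and a two-sided Benjamini-Hochberg adjusted p under 0.05 over all genes tested. The 3 cell groups shared 1 fit. Each SE was derived from the fold change (log2) and the square root of its F value, and 95% intervals follow from it. Alternatives were median-ratio factors, total counts, no filter or a stricter filter, limma-voom (limma 3.58.1), DESeq2 1.42.0, a replicate block, a fit of only the 4 libraries of a comparison, and dropping each library in turn. DESeq2 without each tumour library was added after seeing the data. The fits were tested on simulated data.

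All 41 genes could be named. From each related list, only genes among the 3 with the smallest p per direction and comparison, of those that passed, were named, and not all of these. Some of them are not reported here. The 41 genes and the lists were chosen with earlier results of these data known. Gene models came from GENCODE on mm10.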

Additional observations from a re-analysis of the deposited data

How the results depend on the processing

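Most values kept their direction and their side of the threshold, but the tallies include many values that had not passed. Of the genes that rose or fell, most lost that call in at least 1 edgeR fit with a library left out. In P3 this held for every call. With azacytidine only Gins1 and Pold1 kept theirs in all of these fits, and with decitabine only Mcm5, Orc1, Cdc45, Gins1, Pola2, Pold1 and Pole. Over the counts and medians of the 41 genes, 142 values under an alternative were kept, 25 were weaker, 1 was stronger and 3 moved. A count was kept when it was equal or stayed within 1.5 times. A median was kept when it shifted by less than the SD between replicates of the median of the 41 genes, in the group where this SD was larger. That SD was 0.073 for P3 against P0, 0.27 for each drug against DMSO and 0.11 between the drugs. Over the single values of the 41 genes against P0 or DMSO, the differences between the drugs given one by one and the named related genes, 2279 were kept, 268 lost their call, 49 gained one and 34 changed sign, and no value that changed sign had passed the test. In P3 leaving out 1 library gave Mcm7 -0.14 to 0.075, Pola1 -0.056 to 0.072, Orc6 -0.20 to 0.021, Rfc2 -0.18 to 0.048, Rfc3 -0.13 to 0.088, Rfc5 -0.36 to 0.048, Tk1 -0.34 to 0.048 and Ccne1 -0.055 to 0.039. Total counts only gave 0.036, 0.048 and 0.051 for Mcm7, Rfc3 and Ccne1, and the stricter filter 0.0050 for Ccne1. With azacytidine leaving out 1 library gave Cdt1 -0.54 to 0.056, Rfc3 -0.16 to 0.10, Fen1 -0.084 to 0.25 and Ccne1 -0.30 to 0.24. Rfc3 there was -0.016 with median-ratio factors and with DESeq2, -0.0039 with no filter and -0.022 with only the 4 libraries compared, and Ccne1 was 0.0083 with limma-voom. With decitabine leaving out 1 library gave E2f2 -0.0067 to 0.090, Fen1 -0.19 to 0.073 and Ccne1 -0.18 to 0.37. Between the drugs 14 of all 41 differences changed sign in at least 1 setting. Leaving out 1 library at a time gave 0 to 30 lower and 0 to 2 higher genes in P3 (medians -0.56 to -0.43), 3 to 22 lower and 0 to 2 higher with azacytidine (-0.83 to -0.39), and 7 to 29 lower and 0 to 1 higher with decitabine (-0.99 to -0.56). DESeq2 on the tumours gave 6 (without P0 replicate 1) and 12 (without P0 replicate 2) to 19 lower and 0 to 2 higher (-0.55 to -0.43). Between the drugs these settings called 0 of the 41 genes, with medians of 0.051 to 0.25, and DESeq2 on all libraries called 1 higher. Fewer samples were tested in each of these settings, and the lone library of a group was assumed to vary like the others.

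The replicate block left 17 lower and 1 higher genes in P3, 17 lower and 2 higher with azacytidine, and 26 lower and 1 higher with decitabine. Same-numbered tumour libraries deviated with a correlation of -0.037, and same-numbered cell libraries with -0.26, -0.19 and 0.27. The numbers were not taken to pair the samples, but for the cells these values cannot settle that, because the order of the DMSO libraries is not settled. The DMSO libraries are numbered 2 and 3 in the sample titles and 1 and 2 in the library names. The library names were used here. The opposite order would turn the signs of the first pair of cell values, and all cell values would then be positive. Block counts for the cells rest on that choice. The decitabine rise of Tk1 was lost, giving 0 higher, with total counts only and with only the 4 libraries compared; the cause was not tested. With 2 libraries per group, small changes were not detectable, and for genes at a few CPM, such as Fen1 in the cells, detection was limited further by their low counts.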
